A study of Arabidopsis thaliana with 6 samples.

Results

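The JAZ (JASMONATE-ZIM-DOMAIN) repressors are nuclear proteins that keep jasmonate responses switched off. The genes described here are JAZ1 (AT1G19180), JAZ2 (AT1G74950), JAZ3 (AT3G17860), JAZ4 (AT1G48500), JAZ5 (AT1G17380), JAZ6 (AT1G72450), JAZ9 (AT1G70700), JAZ10 (AT5G13220), JAZ11 (AT3G43440) and JAZ12 (AT5G20900). They were found by these locus identifiers and make up 10 of the 19955 genes in the authors' deposited table. All 10 carried the matching JAZ name in the RefSeq annotation. RNA was sequenced from whole Arabidopsis thaliana seedlings of the accession Col-0, 7 days old, in 3 libraries of the mir163 mutant and 3 libraries of the wild type (WT), all without treatment. The mir163 mutant is named for MIR163, the gene of the microRNA miR163, and the labels do not name its allele. Each genotype has 1 FPKM value per gene (fragments per kilobase of transcript, relative to all mapped fragments), so no spread between libraries can be given for any value below, and the depth is unknown. MIR163 itself stood at an FPKM of 0.0726 in mir163, against 20.5 in WT. Markers of green shoot and of root were both present: RBCS1A had an FPKM of 15342 in mir163 and 18310 in WT, and CASP1 had 50.2 in mir163 and 56.6 in WT.

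JAZ proteins bind MYC2 and related transcription factors and recruit the adaptor NINJA and the co-repressor TOPLESS (TPL) to their target promoters. When the hormone jasmonoyl-isoleucine is present, the F-box protein COI1 binds the JAZ protein together with the hormone, the JAZ protein is marked with ubiquitin and destroyed, and the transcription factors are freed. Many JAZ genes are themselves targets of MYC2, so that their transcripts rise after wounding or jasmonate treatment and restore repression. In seedlings this circuit is known for its part in root growth inhibition, anthocyanin formation and defence.

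Setting mir163 against WT asks what changes in the transcriptome when miR163 is lost. The sequence of the microRNA is shown first because it sets which transcripts it could pair with. In the mature miR163 sequence the seed (bases 2 to 8) is in capitals. The lines after it give the site of PXMT1, a methyltransferase mRNA known to be cleaved by miR163, and the closest matches in JAZ9, which had the nearest match of the JAZ genes, and in JAZ3, the JAZ gene with the largest change. All are written 5′ to 3′ from TAIR10.1, and in the 3 transcript lines capitals mark letters shared with a perfect miR163 site.
miR163: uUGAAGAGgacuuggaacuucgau
PXMT1: ATCGAGTTCCAAGTCCTCTTCAA
JAZ9: tTCAAGTTtCAtGcCtTCTTCAg
JAZ3: gTtaAAGTTtgAAtctCTCTTtAA
miR163 is encoded at chr1:24884359-24884382 on the plus strand. The PXMT1 site, at chr1:24874307-24874329 on the minus strand, shares 23 letters and differs from a perfect site by 1 missing base. The JAZ9 stretch, at chr1:26655302-26655324 on the plus strand within coding sequence, shares 17 letters and has 7 differences, where each mismatch and a single allowed gap count as 1 difference. The JAZ3 stretch, at chr3:6120826-6120849 on the plus strand in an exon of an annotated transcript, outside its coding sequence, shares 15 letters and has 9 differences. None of the 10 JAZ genes had a stretch with 6 or fewer differences in any annotated transcript, which 0.829% of the 31346 genes with an annotated mRNA had. At 7 differences JAZ9 stood with 5.61% of genes, JAZ4 followed at 8, and the 7 members at 9 differences were as near as 71.0% of all genes.

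**Figure D1:**
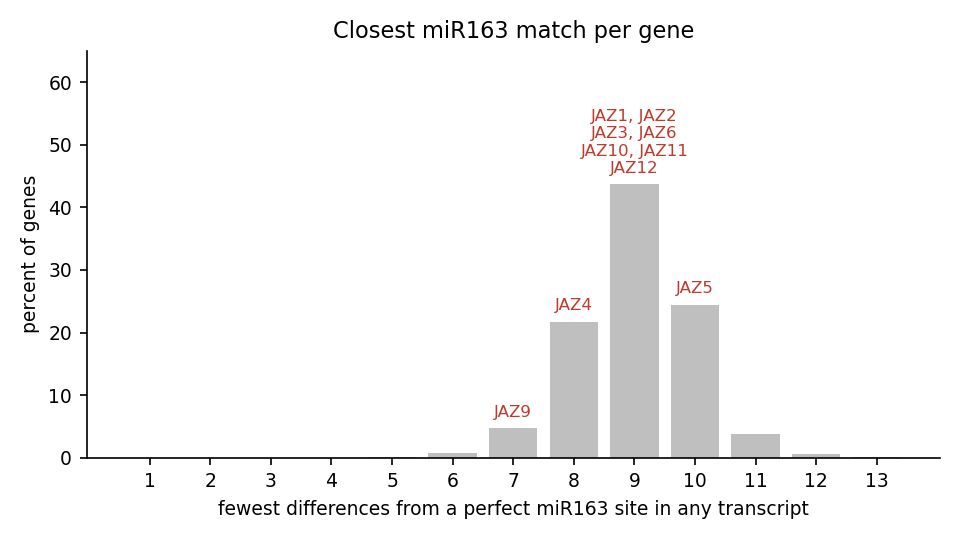
Share of genes (percent, vertical axis) by the fewest differences between a perfect miR163 site and any stretch of the gene's annotated transcripts (horizontal axis); names above a bar give the JAZ genes in it. No JAZ gene lies at 6 or fewer differences, and 7 of the 10 lie in the tallest bar, at 9 differences.

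The JAZ transcripts covered a wide range of levels, and their order was much the same in both genotypes. The highest member exceeded the lowest 45.5-fold in mir163 and 67.7-fold in WT. The 3 most abundant, JAZ9, JAZ12 and JAZ6, made up 67.9% of the summed JAZ FPKM in mir163 and 66.8% in WT. JAZ9, a repressor that also binds the DELLA protein RGA, had an FPKM of 49.9 in mir163 and 61.1 in WT. JAZ12, which is bound by the ubiquitin ligase KEG, had 50.7 in mir163 and 46.0 in WT. JAZ9 and JAZ12 thus stood second and first in mir163 and first and second in WT. With no spread between libraries, neighbours in this order cannot be said to differ. JAZ6, reported to hold an EAR motif through which TPL is recruited directly, ranked after them in both genotypes, at 31.8 in mir163 and 37.9 in WT.

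In the middle of the range, JAZ3 and JAZ2 exchanged places. JAZ2, known for its role in guard cells, had an FPKM of 22.1 in mir163 and 19.8 in WT. JAZ3, also named JASMONATE-INSENSITIVE 3 because a truncated form of it makes plants insensitive to jasmonate, had 12.8 in mir163 and 24.99 in WT. JAZ11 had 11.9 in mir163 and 10.8 in WT, and JAZ1, among the first COI1 substrates described, had 9.16 in mir163 and 10.04 in WT. Of the 10 members, 5 lay above the median FPKM over all genes in both genotypes, which was 12.2 in each.

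The 3 lowest members were under an FPKM of 4 in both genotypes. JAZ10, an early jasmonate-induced gene with splice forms that escape degradation, had 3.05 in mir163 and 3.50 in WT. JAZ4, which binds the cold regulator ICE1, had 2.42 in mir163 and 2.15 in WT. JAZ5, like JAZ6 reported to hold an EAR motif, had 1.11 in mir163 and 0.903 in WT. As only genes with an FPKM of at least 1 in a genotype were tested, JAZ5 entered through its mir163 value alone, which fixed its direction. No member was listed at 0.

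**Figure D2:**
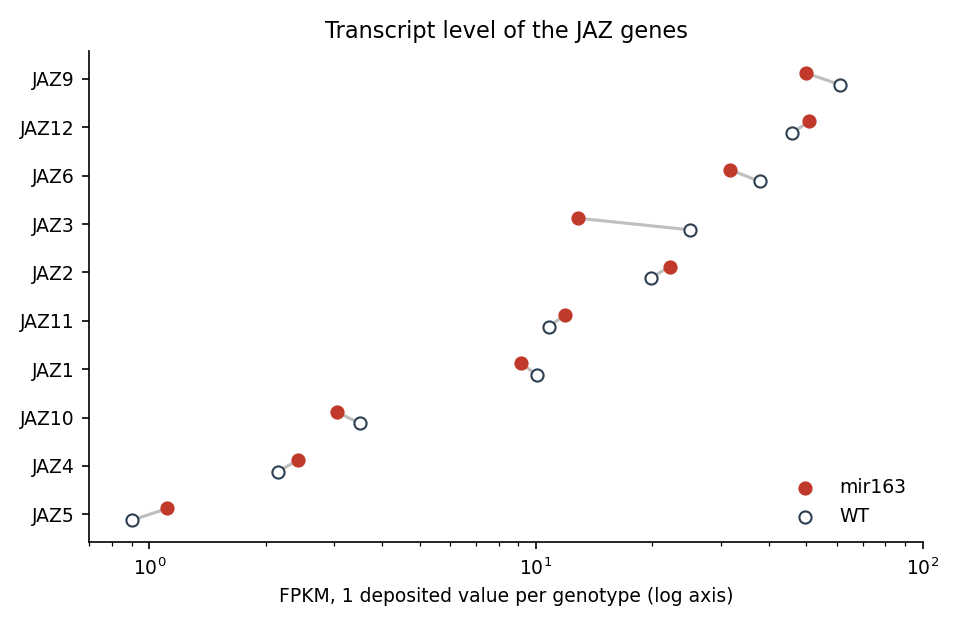
FPKM of the 10 JAZ genes (log axis), 1 deposited value per genotype, with mir163 as filled points and WT as open points; lines join the values of a gene. JAZ3 shows the widest gap, at 12.8 in mir163 and 24.99 in WT, and the other 9 genes have points close together.

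JAZ3 was the only JAZ transcript whose FPKM in mir163 lay more than 1.5-fold from that in WT. Its FPKM in mir163 was 48.6% lower, or 0.514 times the WT value. The authors' deposited table gave JAZ3 a log2 fold change of -0.96 and an unadjusted p of 0.0452. Of all genes tested, 1.16% had an FPKM ratio as low as that of JAZ3, and 174 of the 19264, JAZ3 included, had a deposited p as low, while the median deposited p was 0.768. After Benjamini-Hochberg adjustment of the authors' deposited p-values over the 19264 genes tested, JAZ3 had an adjusted p of 0.9996 and did not pass. MIR163 itself, at a p of 0.180 in the authors' deposited table and the same adjusted p, did not pass either, so a miss of this threshold does not show that a transcript was alike in both genotypes. Since whole seedlings were sequenced, fewer cells with JAZ3 transcript and less transcript per cell cannot be told apart. The gene spans chr3:6119707-6123044 on the plus strand, and no other annotated gene overlaps it.

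At an unadjusted deposited p under 0.05, 1 of the 10 JAZ genes was lower in mir163 and 0 were higher, where 0.327% of all genes tested were lower and 0.67% higher. At a fold of at least 1.5 the same gene, JAZ3, was counted, with 1 of 10 lower and 0 higher, against 3.33% of all genes lower and 3.55% higher. After adjustment over all genes 0 of 10 passed, as did 0% of all genes tested, and the lowest adjusted p over all genes was 0.0876. The deposited p-values lay mostly high, with a median of 0.768, and the test behind them is unknown, so the adjusted values say little. A single gene past a threshold makes 10% of 10, so these shares cannot be read as a result about the family.

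The other 9 JAZ genes lay between 0.817 and 1.23 times their WT level in mir163. In the authors' deposited table their lowest p was 0.474, for JAZ9, and their highest 0.752, for JAZ12. Values were lower in mir163 for JAZ1, JAZ6, JAZ9 and JAZ10 and higher for JAZ2, JAZ4, JAZ5, JAZ11 and JAZ12, so that 5 of the 10 members were higher, where 51.3% of all genes tested were. Of the 5 higher members, JAZ5 had its direction fixed by the minimum FPKM for testing. It is counted here and in the median below, so both depend on that minimum. JAZ9 was the next lowest after JAZ3, at 0.817 times WT. JAZ6 followed at 0.838, JAZ10 at 0.871 and JAZ1 at 0.913. On the side of higher values, JAZ5 led at 1.23 times WT from the lowest level in the family, followed by JAZ4 at 1.13, JAZ2 at 1.12, JAZ12 at 1.10 and JAZ11 at 1.10. Ratios as far from 1 as that of JAZ9, in either direction, occurred in 22.3% of all genes tested, and for JAZ5 in 21.2%. The median change over the 10 members in log2(FPKM + 1) was -5.16e-05, against 0.0064 over all genes tested. It is the midpoint between JAZ1 at -0.12 and JAZ4 at 0.12, and among members with an FPKM of at least 5 in a genotype the median was -0.12.

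**Figure D3:**
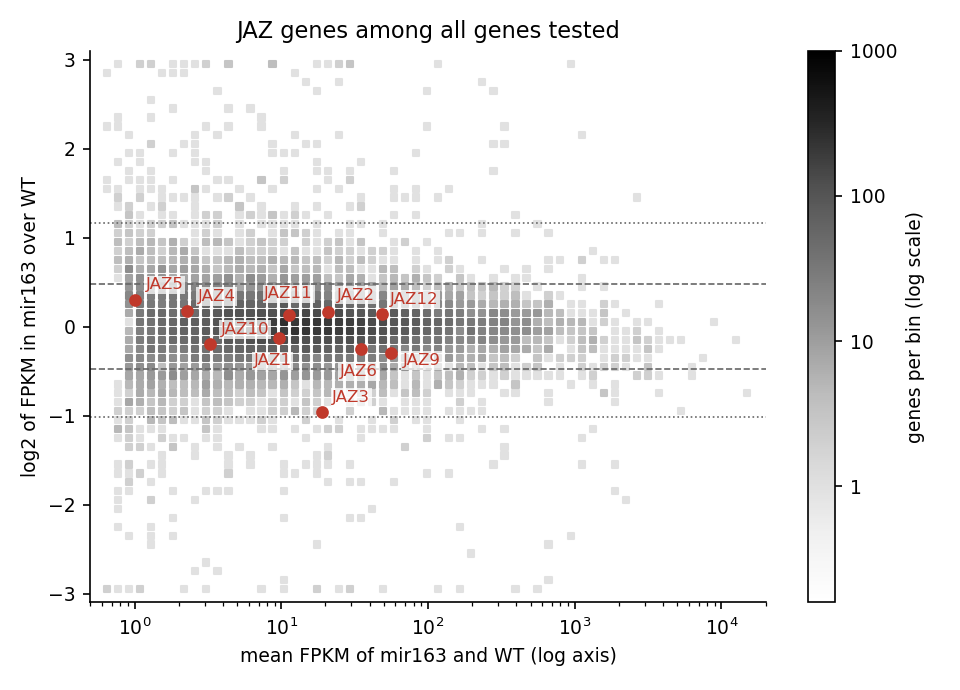
Log2 ratio of FPKM in mir163 over WT against the mean FPKM of both (log axis), for the genes tested (grey squares, darker where more genes fall in a bin; ratios beyond 3 are drawn at the edge, and genes listed at 0 in a genotype are not drawn) and for the 10 JAZ genes (red points). Dashed lines mark the 5th and 95th percentiles of all genes and dotted lines the 1st and 99th. JAZ3 lies at -0.96, near the lower dotted line, and the other 9 JAZ genes lie between the dashed lines.

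Summed over the family, the FPKM was 195 in mir163 and 217 in WT, a ratio of 0.897. Without JAZ3 the sums were 182 in mir163 and 192 in WT, a ratio of 0.947. Grouped by relationship of the proteins, lower sums were found for JAZ3, JAZ4 and JAZ9 together, at 65.2 in mir163 and 88.3 in WT, and JAZ5 with JAZ6, at 32.9 in mir163 and 38.8 in WT. In mir163 JAZ9 made up 76.6% of the former sum and JAZ6 96.6% of the latter, while JAZ4 and JAZ5 themselves had higher values than in WT. JAZ11 with JAZ12 summed to 62.6 in mir163 and 56.8 in WT, and JAZ1 with JAZ2 to 31.3 in mir163 and 29.8 in WT. JAZ3, JAZ4 and JAZ9 made up 33.4% of the summed FPKM in mir163 and 40.6% in WT. The level of JAZ3 relative to its close relative JAZ4 was 5.30 in mir163 and 11.6 in WT, and relative to JAZ9 0.257 in mir163 and 0.409 in WT. That of JAZ6 relative to JAZ5 was 28.5 in mir163 and 42.0 in WT. JAZ4 and JAZ5 were under an FPKM of 4 in both genotypes, so ratios to them rest on low values. JAZ2 relative to JAZ1 stood at 2.42 in mir163 and 1.97 in WT, and JAZ12 relative to JAZ11 at 4.28 in mir163 and 4.25 in WT.

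Related members can share reads, so their coding sequences were compared. Among the 45 pairs of members, nucleotide identity over aligned coding bases ranged from 56.3% to 76.4%, and was highest for JAZ1 with JAZ2. The longest stretch identical in 2 members was 25 bases, in JAZ3 and JAZ4, whose coding sequences were 76.1% identical. The sources used here do not say how reads that match 2 genes were counted. Of the 10 members, 9 have more than 1 annotated coding model, and JAZ10 has 6 from 7 transcripts. The deposited values are per gene, so splice forms, among them the stable forms of JAZ10, were not measured apart. Of the 10 genes, 6 lie on chromosome 1, 2 on chromosome 3 and 2 on chromosome 5. Overlap with another annotated gene was found for 2 members. JAZ12 overlaps the opposite-strand gene AT5G20910 by 28 bases, whose FPKM was 11.3 in mir163 and 11.2 in WT, and a long noncoding RNA by 211 bases, while JAZ10 overlaps a long noncoding RNA by 71 bases.

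MYC2 and related factors bind the G-box, CACGTG, and the variant CACATG, and the promoters of JAZ genes are known targets of theirs. The 250 bases before each annotated gene start were therefore searched on both strands for these motifs, for the GCC box, GCCGCC, bound by ethylene response factors, and for the evening element, AAATATCT, bound by clock factors. A G-box was found upstream of 2 of the 10 JAZ genes, JAZ3 and JAZ2, and of 6.49% of 27443 protein-coding genes. JAZ3 held 2 copies, at positions -140 to -135 and -82 to -77 from its start, which 0.875% of all promoters of this length did. JAZ2 held 1, at -66 to -61. The variant occurred at JAZ9 and JAZ10 and in 11.1% of all promoters, the evening element at JAZ10 alone of the members and in 4.79%, and the GCC box at 0 members and in 1.87%. The other 6 members held none of the 4 motifs in this window.

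The upstream sequences of the 3 members that carry a G-box or the evening element are shown because they differ in both motif content and transcript ratio. Capitals mark the motifs named above, and each line runs 5′ to 3′ and ends at the base before the gene start.
JAZ3: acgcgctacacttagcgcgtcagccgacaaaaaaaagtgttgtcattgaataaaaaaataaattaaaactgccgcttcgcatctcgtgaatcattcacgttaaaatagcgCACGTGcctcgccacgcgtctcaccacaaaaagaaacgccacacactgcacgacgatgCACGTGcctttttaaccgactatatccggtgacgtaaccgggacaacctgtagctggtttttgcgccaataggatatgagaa
JAZ2: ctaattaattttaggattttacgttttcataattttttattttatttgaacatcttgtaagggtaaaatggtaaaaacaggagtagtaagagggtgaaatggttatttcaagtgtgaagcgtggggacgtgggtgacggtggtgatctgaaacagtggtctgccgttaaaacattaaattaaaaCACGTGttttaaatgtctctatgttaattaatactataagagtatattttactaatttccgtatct
JAZ10: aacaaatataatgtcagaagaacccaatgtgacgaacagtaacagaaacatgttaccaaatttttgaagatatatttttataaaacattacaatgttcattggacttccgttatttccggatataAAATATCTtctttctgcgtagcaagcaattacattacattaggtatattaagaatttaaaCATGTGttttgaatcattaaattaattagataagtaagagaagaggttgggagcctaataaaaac
These are chr3:6119457-6119706 on the plus strand for JAZ3, chr1:28150447-28150696 on the minus strand for JAZ2 and chr5:4218536-4218785 on the plus strand for JAZ10, all in TAIR10.1. The JAZ3 stretch is 46.4% G and C, the JAZ2 stretch 31.2% and the JAZ10 stretch 28.0%. The G-box genes lay on opposite sides of their WT levels, with JAZ3 at 0.514 and JAZ2 at 1.12 times WT in mir163. A match of letters does not show that a factor was bound there.

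**Figure D4:**
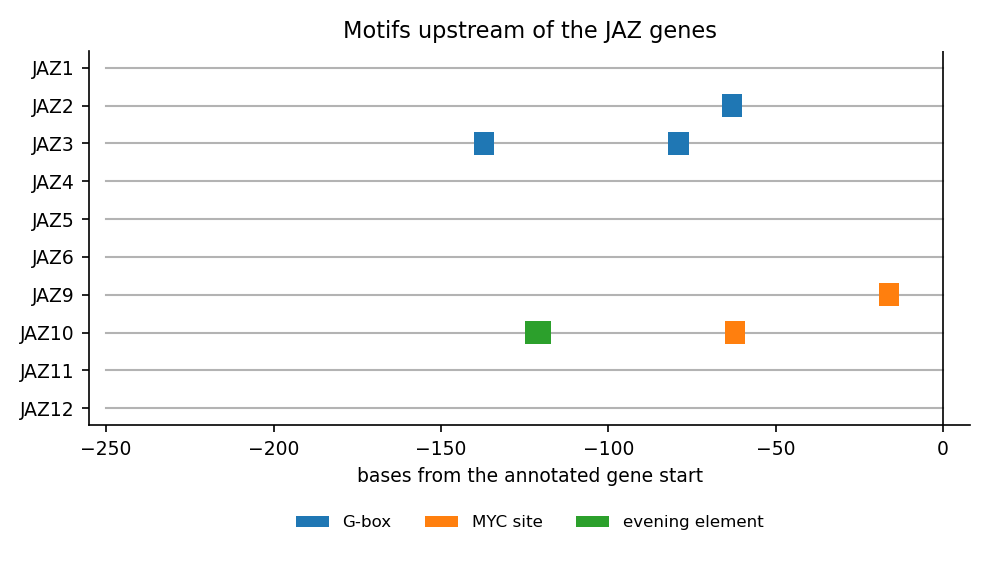
Motifs in the 250 bases before the annotated start of each JAZ gene (horizontal axis, bases from the start), with the G-box in blue, the CACATG variant (MYC site) in orange and the evening element in green. JAZ3 carries 2 G-boxes and JAZ2 carries 1, and 6 genes carry no motif.

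The remaining genes of the TIFY family, which share the TIFY motif with the JAZ proteins, held no gene past 1.5-fold. Of all genes tested, 3.55% were at least 1.5-fold higher in mir163 and 3.33% lower. At an unadjusted deposited p under 0.05, 0.67% were higher and 0.327% lower. With shares this small, counts of 0 in a short list cannot be read as a result about it. Of 9 listed, 7 were in the table, and JAZ8 and JAZ13 were not analysed here. Of the 7, 4 had higher and 3 lower values in mir163, 0 reached an unadjusted deposited p under 0.05, and their median change in log2(FPKM + 1) was 0.0079. Higher values in mir163 were found for 51.3% of all genes tested. JAZ7, a short JAZ protein, had an FPKM of 1.31 in mir163 and 1.16 in WT. The leaf growth repressors PPD1 and PPD2 had 3.73 and 13.98 in mir163, against 4.55 and 14.6 in WT. TIFY8 had 34.9 in mir163 and 34.7 in WT. The GATA-type members ZIM, ZML1 and ZML2 had 16.7, 13.2 and 10.2 in mir163, against 18.1, 11.1 and 10.096 in WT.

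The genes of proteins that act directly on or with JAZ held none past 1.5-fold. At that fold 3.55% of all genes tested were higher and 3.33% lower. With no fold required, 51.3% had higher values in mir163, and the median change in log2(FPKM + 1) over all genes tested was 0.0064. COI1, the receptor, had an FPKM of 21.2 in mir163 and 23.1 in WT. Of the 5 genes of the receptor and its ubiquitin ligase, 3 had higher and 2 lower values in mir163 with a median change of 0.024, and the most abundant, the SKP1 adaptors ASK1 and ASK2, had 286 and 104 in mir163, against 291 and 89.5 in WT. NINJA, the adaptor to TPL, had 33.3 in mir163 and 28.1 in WT. Of the 8 co-repressor genes, 2 had higher and 6 lower values with a median change of -0.061. Counts by direction in lists this short were not tested. TPL had 50.9 in mir163 and 62.2 in WT, and the histone deacetylase HDA19 had 61.8 in mir163 and 63.2 in WT.

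MYC2, the transcription factor most studied as a JAZ target, had an FPKM of 20.1 in mir163 and 16.3 in WT. MYC3 had 26.7 in mir163 and 24.1 in WT, and MYC4 had 16.8 in mir163 and 16.4 in WT. Of 24 listed transcription factors bound by JAZ proteins, 19 were tested, with a median change of 0.030. In mir163, 10 of them had higher and 9 lower values, where 51.3% of all genes tested had higher values. The minimum FPKM of 1 for testing fixed the direction of 1 of the 10, GL1, which reached it in mir163 alone. The most abundant were EIN3, a transcription factor of ethylene signalling, at 58.7 in mir163 and 53.6 in WT, and TOE1, a repressor of flowering, at 57.6 in mir163 and 52.5 in WT. In these 3 lists 0 genes reached an unadjusted deposited p under 0.05, where 0.67% of all genes tested were higher and 0.327% lower. With shares this small, a count of 0 cannot be read as a result about these lists.

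Upstream and downstream of the repressors, the lists held genes past 1.5-fold, where 3.55% of all genes tested were higher and 3.33% lower. Among jasmonate synthesis genes, 14 of 17 had higher values in mir163, and 2 reached an unadjusted p under 0.05 in the authors' deposited table, both higher, where 51.3% of all genes tested had higher values and 0.67% were higher at that p. The lists were chosen with earlier results of these data known and were not tested as sets. These counts therefore cannot be read as a result about jasmonate synthesis. AOC2, an allene oxide cyclase, had an FPKM of 97.2 in mir163 and 28.5 in WT, with a deposited p of 0.0041 in the authors' deposited table. The other listed AOC genes, AOC1, AOC3 and AOC4, had 36.2, 9.89 and 33.3 in mir163, against 32.6, 10.4 and 28.3 in WT. Whether the AOC genes share reads was not examined here, so the split of values among them may depend on how such reads were counted. LOX2, the chloroplast lipoxygenase, had 50.6 in mir163 and 25.4 in WT, with a p of 0.0154 in the authors' deposited table. Adjusted over all genes by Benjamini-Hochberg, AOC2 and LOX2 had an adjusted p of 0.9996 and did not pass. Among 9 tested genes that inactivate or modify jasmonates, 4 had higher and 5 lower values with a median change of -0.13. Of the 5, this minimum FPKM fixed the direction of 3, CYP94C1, JMT and JOX3, which reached it in WT alone. The median counts these 3 genes, so it too depends on that minimum, and it was -0.045 with a pseudocount of 5. The hydrolase IAR3 had 22.8 in mir163 and 22.6 in WT, and the jasmonate oxidase JOX2 had 13.8 in mir163 and 12.8 in WT. JOX3, another oxidase of this family, was the 1 gene of the list past 1.5-fold, at 0.886 in mir163 and 2.102 in WT, with its direction fixed by that minimum, and had a p of 0.0623 in the authors' deposited table.

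Of the 12 listed response genes, 7 were tested, with 5 higher and 2 lower values in mir163, where 51.3% of all genes tested had higher values. Their median change in log2(FPKM + 1) was 0.45, or 0.27 with a pseudocount of 5. ANAC019, listed but under the minimum FPKM for testing, had 0.692 in mir163 and 0.886 in WT. CLH1, a chlorophyllase induced by coronatine, had an FPKM of 41.0 in mir163 and 29.8 in WT. CORI3, a cystine lyase also induced by coronatine, had 12.1 in mir163 and 7.03 in WT. It was 1 of 3 response genes at least 1.5-fold higher in mir163, where 3.55% of all genes tested were, and the others, named after their values were seen, were ORA59 and VSP2. ORA59, an activator of defence genes, had 4.36 in mir163 and 2.31 in WT, and the storage protein VSP2 had 3.57 in mir163 and 2.12 in WT. Their p-values in the authors' deposited table were 0.0847 for CORI3, 0.0706 for ORA59 and 0.121 for VSP2. At 0.05, 0 of 7 passed, where 0.67% of all genes tested were higher and 0.327% lower. This list too was chosen with earlier results known and was not tested as a set, so its counts cannot be read as a result about it. The 2 response genes with lower values were VSP1, at 6.58 in mir163 and 7.19 in WT, and JAV1, at 7.36 in mir163 and 9.92 in WT. The remaining higher value was that of MED25, at 9.40 in mir163 and 8.74 in WT. The JAZ genes, with 5 higher (JAZ5 through the minimum FPKM for testing) and 5 lower, and this list were not tested against each other.

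**Figure D5:**
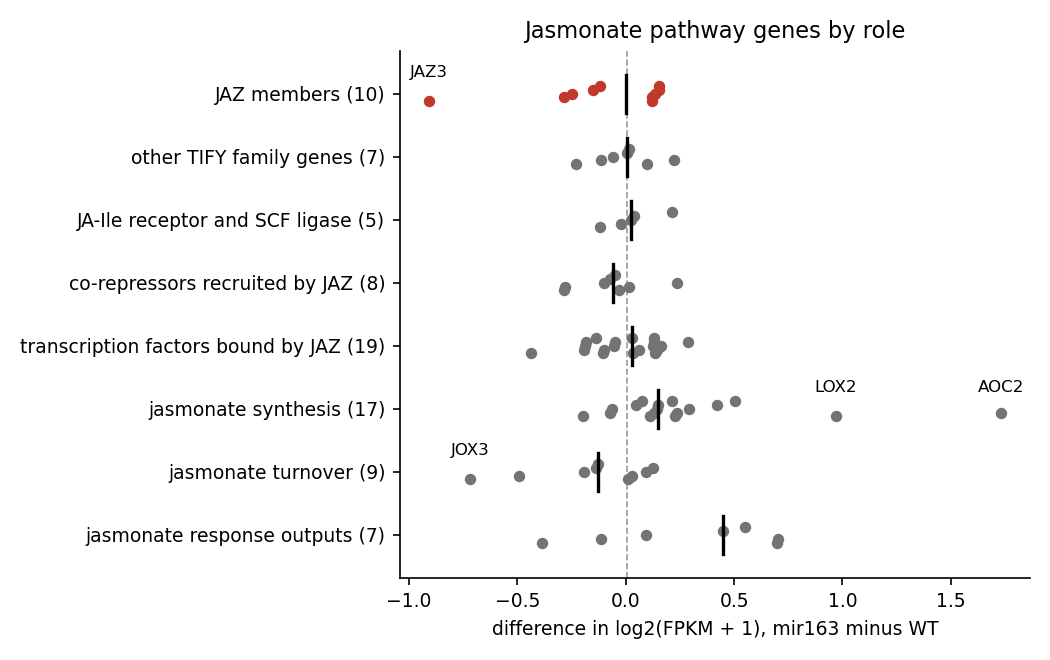
Difference in log2(FPKM + 1), mir163 minus WT, for each tested gene (points) of the JAZ genes (red) and 7 other lists of the jasmonate pathway (grey), with the number of genes in brackets. Black bars mark list medians and the dashed line the median of all genes tested. The JAZ genes lie on both sides of 0 with JAZ3 far to the left, while the synthesis and response lists have medians of 0.15 and 0.45 (0.27 for the response list with a pseudocount of 5).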

How the data were processed

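RNA was sequenced from 3 mir163 and 3 WT libraries. Per the labels' protocols, RNA was isolated with Trizol and an NEBNext Ultra kit was used for the libraries. TopHat, Cufflinks, bcl2fastq 2.17.1.14 and the build TAIR10 are named in the submitters' processing notes. Per the file headers, the authors' deposited values are FPKM, 1 column per genotype, beside an unadjusted p-value and a log2 fold change, which is the log2 ratio of both FPKM columns. The sources used here do not give how libraries were combined, which test gave the deposited p-value, any further scaling or whether strand was kept. FPKM is relative to each library's total, so a change in abundant transcripts shifts all others. No counts were analysed here, so no interval or detection limit is given. The p-values measure only the spread that the authors' own test used.

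No model over libraries could be fitted to 1 value per genotype. Benjamini-Hochberg adjustment of the deposited p-values ran over the 19264 genes with an FPKM of at least 1 in a genotype, which left out 691 genes. Counts use a threshold of 0.05 or a plain ratio of at least 1.5, and list medians use log2(FPKM + 1), which understates the change of low genes. Members and lists were chosen with earlier results of these data known. All members, all measured TIFY genes, COI1, NINJA, MYC2, MYC3 and MYC4 were named. In other lists, genes at an unadjusted p under 0.05 were named, or else the 2 with the highest mean FPKM. JOX3, ORA59, VSP2, VSP1, JAV1, MED25, ANAC019, AOC1, AOC3 and AOC4 were added after values were seen.

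Sequences, coordinates and gene models are from RefSeq TAIR10.1, whose nuclear chromosomes were used in place of TAIR10. miR163 sites were sought in all annotated mRNAs, G:U pairs counting as mismatches. Python 3.11.15, numpy 2.4.6, pandas 2.3.3, Biopython 1.88 and matplotlib 3.10.9 were used, and the calculations were tested on simulated data.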

Additional observations from a re-analysis of the deposited data

How the results depend on the processing

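No paired analysis was possible because all libraries of a genotype are combined into 1 FPKM value, so that no library could be left out either. The count of JAZ genes past the adjusted threshold was 0 in each direction with no filter, with a minimum FPKM of 5 and with Benjamini-Yekutieli adjustment. JAZ3 kept the count of 1 lower gene at an unadjusted p under 0.05 and at 1.5-fold, except that the count was 0 at a p under 0.01 and 0 at 2-fold. All 10 JAZ genes kept their direction under median-ratio scaling and quantile normalization, JAZ5 with its direction fixed by the minimum FPKM for testing. Median-ratio scaling took JAZ1 from 0.913 to 0.908 times WT. A shift this small could not turn any member, so it is no check of direction. The JAZ median in log2(FPKM + 1) was -0.12 at a minimum FPKM of 5, where fewer genes were tested, and at a pseudocount of 0.1 it lay on the other side of 0, at 1.02e-05. The response list had a median of 0.27 at a pseudocount of 5, which gives low genes less weight. Of the other alternatives for list medians, each lay within 0.1 of the value reported. Among these, the list of genes that inactivate or modify jasmonates went from -0.13 to -0.045 at a pseudocount of 5. Medians of the lists other than the JAZ genes were not recomputed at another minimum FPKM. Depth is unknown, so what it limits cannot be stated.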
